A study of Canis lupus familiaris with 2 samples.

Results

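The miR-200 family and miR-205 are the miRNAs best known for their abundance in epithelial cells, and 6 of the 291 dog miRNAs on the array belong to this set: cfa-miR-141, cfa-miR-200a, cfa-miR-200b, cfa-miR-200c, cfa-miR-205 and cfa-miR-429. They were chosen by the number in their names, with letter and arm suffixes ignored, and each had 1 spot on the chip. The prefix cfa, for the dog, is left out from here on. Serum was taken at 2 months of age from male normal dogs and from male dystrophic dogs of the CXMD_J colony, an X-linked canine model of Duchenne muscular dystrophy. The serum of 3 dogs was pooled for each condition before RNA was prepared, and each pool was labelled with Cy5 and hybridized to 1 single-color array. There is therefore no replicate of either condition, no test between the conditions was made, and differences between dogs cannot be seen.

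miRNAs guide the silencing of mRNAs through their seed, a short stretch near the 5′ end. miR-200b, miR-200c and miR-429 share one seed, and miR-200a and miR-141 share another that is very similar to it. The family is known to silence ZEB1 and ZEB2, repressors of E-cadherin, and thereby to hold cells in the epithelial state, while ZEB1 and ZEB2 in turn repress the miRNA genes. miR-205 has an unrelated seed, is abundant in stratified and glandular epithelia, and also silences ZEB mRNAs. Neither is among the miRNAs characteristic of skeletal muscle.

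The genes of the family lie in 2 groups. In the RefSeq gene table of the dog assembly UU_Cfam_GSD_1.0, in which 6 of the 6 hairpins were found by name, MIR200B, MIR200A and MIR429 follow one another with no other listed gene between them, within the span of TTLL10. MIR200C and MIR141 follow one another between the protein-coding genes PTPN6 and PHB2. MIR205 has no other member beside it, and its nearest protein-coding genes are PLXNA2 and CAMK1G. The members of a gene group therefore do not coincide with the members that share a seed.

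The brightness of a spot was read as its median intensity in scanner units. Of the 3200 spots of an array, 1408 were blank, and their mean, taken after trimming the extremes, was 118 for normal serum and 116 for dystrophic serum. A miRNA was called detected when its spot was above this mean plus 2 SD, a limit of 126 and 124, respectively. Spots that carry no dog probe passed this limit too. With normal serum 21 of the 32 negative controls, 26.5% of the spots without a probe and 9.38% of the blank spots did so. With dystrophic serum these values were 27 of 32, 23.8% and 8.59%. A detected call alone therefore does not show that the miRNA was present. Normalized signals are the intensities above the blank mean, multiplied by a factor for each array that brings the median of its detected miRNAs to 25. Spot noise was taken from the blank spots, of which 95% lay within a range equivalent to 13.1 units (normal array) or 12.7 units (dystrophic array) to either side. Intervals given below combine it with the variation between spots of bright control probes (coefficient of variation 6.67%) and cover spot noise alone. A list of 5 muscle miRNAs checked the labels. miR-1, miR-133a, miR-133b, miR-133c and miR-206 were brighter on the dystrophic array in 5 of 5 cases, compared with 68.0% of the dog miRNAs. This holds for the spots themselves and not for spot minus local background, the median intensity around a spot. That difference fell from normal to dystrophic serum for miR-1 (28.8 to 23.4), miR-133a (22.1 to -387), miR-133b (19.0 to -37.9) and miR-206 (37.7 to 18.5). It rose for miR-133c, from 14.4 to 632 units. Of the muscle miRNAs outside this list, miR-499 had a dimmer spot on the dystrophic array, with spots of 130 in normal and 122 in dystrophic serum. It was detected in normal serum alone, and miR-208a and miR-208b were detected in neither. Of 3 listed red-cell miRNAs on the chip, miR-144 was not detected, and miR-451 and miR-16 were lower on the dystrophic array, with ratios of 0.196 and 0.346. The local background of miR-451 was 1768 in normal and 193 in dystrophic serum. Spot minus local background went from -423 to 225 units for miR-451, the opposite direction, and from 116 to 42.5 units for miR-16. The part of the surroundings in these ratios was not tested. miR-185, a red-cell miRNA outside this list, was brighter on the dystrophic array. Its spot read 120 in normal and 130 in dystrophic serum, and it was detected in dystrophic serum alone.

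Dystrophic serum gave a detected signal for 4 of the 6 miRNAs, and normal serum for 1. Among all dog miRNAs, 64.6% were detected in dystrophic serum and 54.6% in normal serum. miR-205 was the only member detected in both, compared with 48.8% of the dog miRNAs. miR-200c, miR-200a and miR-141 were detected in dystrophic serum alone, 3 of 6, compared with 15.8% of the dog miRNAs. miR-200b and miR-429 were detected in neither, a group that holds 29.6% of the dog miRNAs. No member was detected in normal serum alone (5.84% of the dog miRNAs). These counts rest largely on spots close to the limit, since only 2 members, miR-200c and miR-205, outshone 99% of the blank spots in dystrophic serum and only miR-205 did so in normal serum. Of all dog miRNAs, 36.8% and 24.4% did so, respectively. The same 2 members and the same 1 were brighter than 95% of the spots without a probe, a level passed by 32.3% of the dog miRNAs in dystrophic and 28.9% in normal serum. The spot was brighter on the dystrophic array for 5 of the 6 members, compared with 68.0% of the dog miRNAs.

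**Figure D1:**
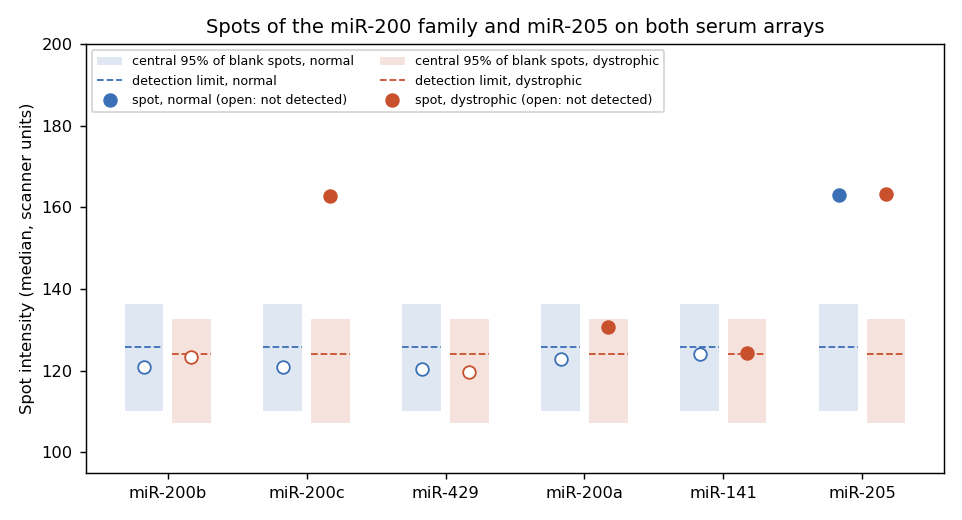
Spot intensity in scanner units of the 6 miRNAs on the arrays of normal (blue) and dystrophic (red) serum, with the central 95% of the blank spots (shaded) and the detection limit (dashed). miR-200c on the dystrophic array and miR-205 on both arrays read about 163, and the other spots lie within the range of the blank spots.

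miR-200c was the member that differed between the arrays. Its spot read 121 with normal serum and 163 with dystrophic serum. The normal spot lay 2.98 units above the mean blank spot, below the limit, and 328 of 1408 blank spots equaled or exceeded it. The dystrophic spot lay 46.9 units above the mean, and 3 blank spots equaled or exceeded it. The normalized signal in dystrophic serum was 38.8, with an interval from 27.2 to 50.5. This was 4.68 times the lowest signal detected on the normal array, 8.30, a figure that leaves spot noise out. The noise interval of miR-200c on the normal array reached up to 16.7. The interval of the difference in normalized signal, dystrophic minus normal, ran from 17.8 to 53.6. miR-200c thus went from the level of the blank spots to a level that few of them reached.

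Among the 46 dog miRNAs detected in dystrophic serum alone, miR-200c had the highest normalized signal; the median of these 46 was 11.8. The miRNA nearest to it in brightness was miR-381, with a normalized signal of 38.2, followed by miR-872 with 25.8 and miR-380 with 23.0. Spots differ in how strongly their probes bind, so this order is one of brightness and not of abundance. Spots that carry no dog probe also reached this level. Of 181 positions that hold no probe, 4 reached or passed the brightness of miR-200c in dystrophic serum. None of the 32 negative-control spots did, the brightest of these reading 152. In serum, release of a miRNA by more cells and release of more miRNA per cell cannot be told apart.

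The same position of the chip was read on both arrays, and the change at each position was compared. The spot of miR-200c rose by 41.8 units. A rise of at least this size was seen at 3 of the 1408 blank positions, at 1 of the 181 positions without a probe and at none of the 32 negative controls. Among the dog miRNAs 34 rose by more, and the median change of the 291 was 3.54 units. The 5 other members changed by between -0.75 and 7.79 units, a range that is also common among blank positions. The change of miR-200c was therefore unusual for a position without a dog probe, although it was not unique, and it was far from the largest among the miRNAs.

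**Figure D2:**
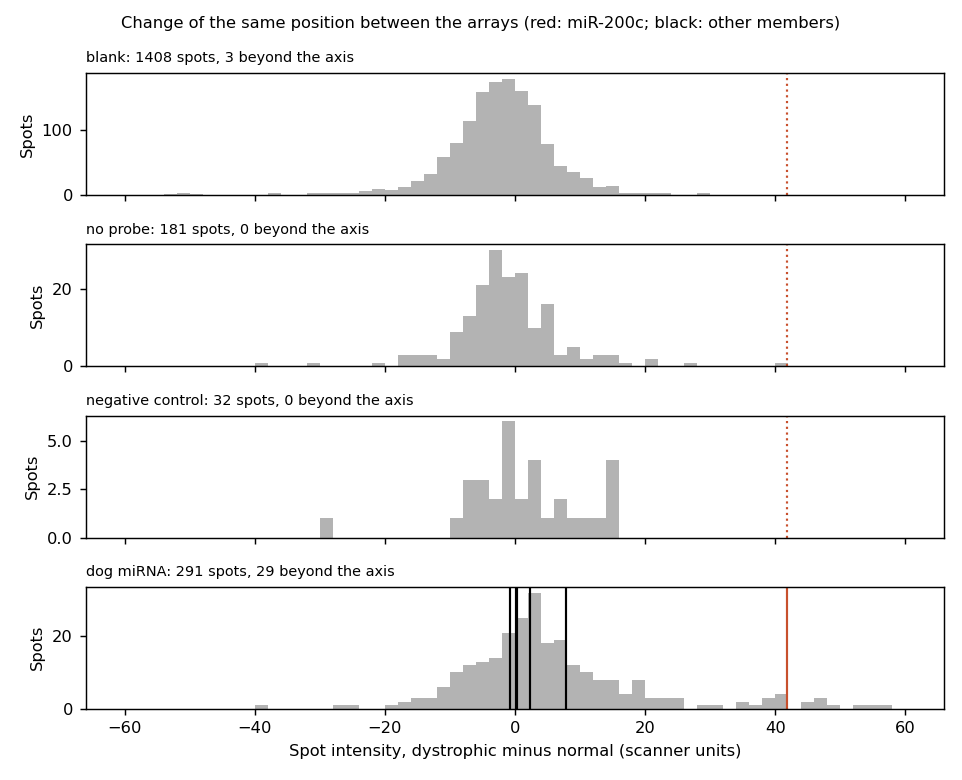
Change in spot intensity at the same position, dystrophic minus normal in scanner units, for blank spots, spots without a probe, negative controls and dog miRNAs (number of spots on the vertical axes, changes beyond 60 units not drawn). The red line at 41.8 marks miR-200c and the black lines, between -0.75 and 7.79, mark the other 5 members.

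The 8 spots that touch the spot of miR-200c changed less than it did, but the background around them rose by as much as 46.8 units. The local background of miR-200c, the median intensity around its spot, was 101 in normal and 87.8 in dystrophic serum. The level in normal serum was reached by 2.27% of the blank spots of that array, and the level in dystrophic serum by 21.5%. The spot exceeded its surroundings by 19.7 units in normal and by 74.9 units in dystrophic serum. A contrast at least as large was seen at 1386 of the 1408 blank spots on the normal array and at 1 on the dystrophic array. The contrast in normal serum was thus low even for a blank spot. Of the 8 spots that touch it, 7 were brighter on the dystrophic array, by at most 12.1 units, and their median was 124 in normal and 135 in dystrophic serum. The local background around 6 of these 8 was higher on the dystrophic array, by at most 46.8 units. The blank spots of its block had a mean of 118 and 115. The part of the surroundings in the rise of miR-200c was not tested.

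miR-200c was compared with miR-200b and miR-429, the members known to share its seed. On the normal array the 3 spots lay within 0.58 units of each other, from 120 to 121. On the dystrophic array miR-200c read 163, while miR-200b read 123 and miR-429 read 120, both below the limit. For miR-200b the intensity above the mean blank spot was 2.90 units in normal and 7.49 units in dystrophic serum, and 138 blank spots equaled or exceeded the latter. It lay at -0.745 units from the limit in dystrophic serum. One of the spots that touch it, a QC probe, read 16394 and 16129, the brightest neighbor of any member. For miR-429 the intensities above the mean were 2.41 and 3.86 units, and in dystrophic serum 300 blank spots equaled or exceeded it. miR-429 was the dimmest of the 6 members on both arrays. With undetected signals replaced by the limit, the ratio of dystrophic over normal was 4.74 for miR-200c, and 0.83 for both miR-200b and miR-429, the latter being the ratio of the limits themselves. The spots of miR-200b and miR-429 were thus not distinguishable from blank spots in either serum, and a bright signal at one probe of this seed was not accompanied by a signal at the others.

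miR-200a and miR-141, which carry the other seed of the family, were called detected in dystrophic serum alone, but their spots were dim. The spot of miR-200a read 123 in normal and 131 in dystrophic serum. In dystrophic serum it stood 14.9 units over the mean blank spot, and 46 blank spots, 22 spots without a probe and 20 of the 32 negative controls equaled or exceeded it. Its normalized signal there was 12.3 (interval 1.69 to 22.9), 1.48 times the lowest signal detected in normal serum. The interval of its difference between the arrays, from -10.0 to 24.5 in normalized signal, includes 0. In the order of brightness of the 46 miRNAs that only dystrophic serum showed, miR-200a was in the middle, in place 23.

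The spot of miR-141 was nearly the same on both arrays. It read 124.2 in normal and 124.3 in dystrophic serum, a change of 0.12 units. The limit was lower on the dystrophic array, and the spot passed it by 0.28 units there, whereas it lay at -1.68 units from that of the normal array. Its normalized signal in dystrophic serum was 7.04, the second lowest of the 46 miRNAs detected there alone, and 117 blank spots equaled or exceeded it. No fold is given, because this signal is below the lowest one detected in normal serum. For miR-141 it was thus the limit that differed between the arrays, more than the spot.

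Within the gene groups only miR-200c stood out, and spots near the level of the blank spots cannot show whether the genes of a group moved together. In the group of miR-200c and miR-141 the dystrophic spots differed by 38.4 units, compared with 3.21 units on the normal array. In the group of miR-200b, miR-200a and miR-429 they ranged over 11.0 units on the dystrophic and 2.48 units on the normal array. Both ranges are smaller than the spot noise of 12.7 units (dystrophic array) and 13.1 units (normal array) to either side. 1 of 3 members of that group, miR-200a, was detected in dystrophic serum and none in normal serum. For miR-141, miR-200a, miR-200b, miR-205 and miR-429 the interval of the difference between the arrays included 0, and miR-200c was the exception, 1 of the 6. Over all dog miRNAs this interval lay above 0 for 14.1% and below 0 for 4.81%, so 1 of 6 is close to the background.

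**Figure D3:**
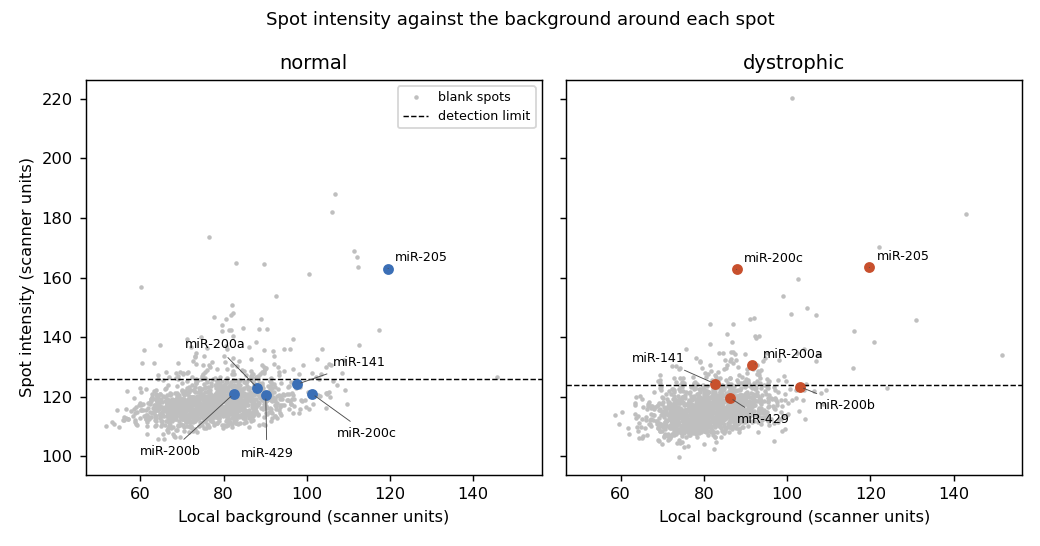
Spot intensity against the local background around the spot, both in scanner units, for the 6 miRNAs (colored) and the 1408 blank spots (grey) on the arrays of normal and dystrophic serum, with the detection limit dashed. On the dystrophic array miR-200c stands above the blank spots of similar surroundings, whereas miR-205 combines a bright spot with a local background of 120 on both arrays.

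miR-205 was detected in both sera at nearly the same brightness. Its spot read 163.0 with normal and 163.4 with dystrophic serum, 45.0 and 47.6 units above the mean blank spots. This was equaled or exceeded by 8 blank spots of the normal and 3 of the dystrophic array. Of the 181 spots without a probe, 4 did so on each array. Of the 32 negative controls, 1 did so on the normal array and none on the dystrophic array. The normalized signals of miR-205 were 46.8 (interval 31.9 to 61.7) and 39.4 (interval 27.7 to 51.0), which gave a ratio of 0.84 (interval 0.54 to 1.33). The interval includes a ratio of 1 and leaves out the limits of 2 and of 0.5 that were used for elevated and reduced miRNAs, which were passed by 13.4% and 5.63% of the 142 miRNAs detected in both sera. A ratio below 1 was found for 41.5% of these 142. The direction came from the scaling, with factors of 1.04 for the normal and 0.827 for the dystrophic array, because without it the ratio was 1.06. A smaller difference in miR-205 than this interval spans was not detectable with 1 spot for each condition.

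The spot of miR-205 lies in brighter surroundings than those of the other members. Its local background was 120 on both arrays, a level reached by 0.071% of the blank spots of the normal and 0.43% of those of the dystrophic array. One of the 8 spots that touch it, a QC probe at a corner, read 4595 with normal and 2474 with dystrophic serum, and another QC probe beside it read 318 and 426. The spot exceeded its surroundings by 43.5 and 43.7 units, and 527 and 186 blank spots had a contrast at least as large. When the local background was subtracted, miR-205 was not detected on either array. miR-329b touches the same bright QC probe along an edge, and its spot read 121 on both arrays. Another QC probe, which touches both that bright spot and miR-205 along an edge, read 142 and 154, with local backgrounds of 110 and 121. The spots beside the bright QC probe thus differed among themselves. Raised surroundings were also seen at miR-214, a mesenchymal miRNA of similar brightness, with spots of 155 and 170 and local backgrounds of 120 and 125. The part of the surroundings in the signal of miR-205 was not tested.

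The miRNAs nearest to miR-205 in brightness over both arrays, among the 142 detected in both, were miR-191, miR-149 and miR-671. Their normalized signals were 50.1 and 37.9 for miR-191, 44.2 and 41.8 for miR-149, and 39.7 and 40.4 for miR-671, in normal and dystrophic serum, respectively. With 2 arrays this nearness is a statement on 2 values alone. miR-205 was the 52nd brightest of the 291 dog miRNAs in normal serum and the 67th in dystrophic serum, where miR-200c was the 68th. miR-200c had been the 198th in normal serum.

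**Figure D4:**
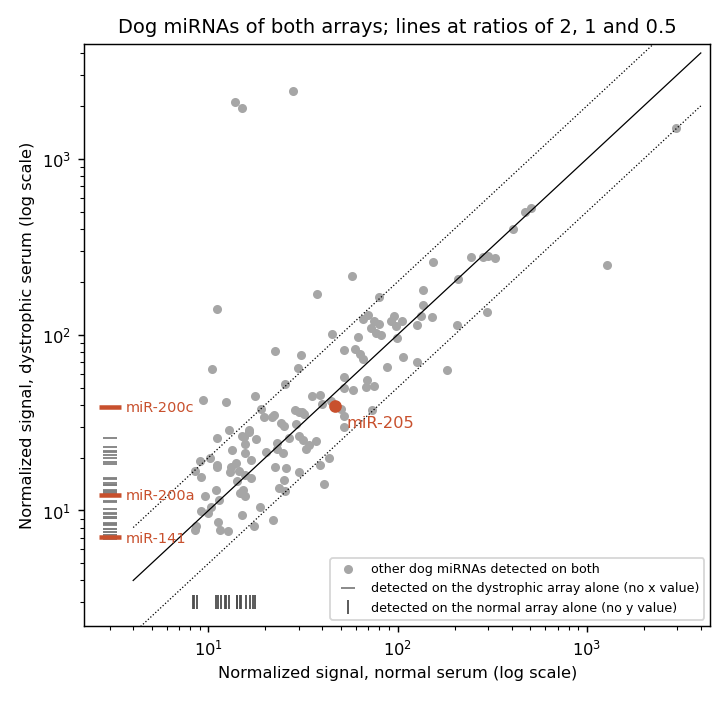
Normalized signal in dystrophic against normal serum for the dog miRNAs, on log axes, with lines at ratios of 2, 1 and 0.5; bars at the left and lower edges are miRNAs detected on 1 array alone. miR-205 lies near the line of 1 (ratio 0.84), and miR-200c (38.8), which covers the bar of miR-381 (38.2), is the highest bar at the left edge, above miR-200a (12.3) and miR-141 (7.04).

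Other miRNAs known from epithelia were examined as a list of 10: miR-203 of the epidermis, miR-182, miR-183 and miR-96 of sensory epithelia, miR-31, miR-375 of endocrine and gut epithelia, miR-184 of cornea and lens, and miR-449, miR-34b and miR-34c of ciliated cells. Of these 3 were detected in dystrophic and 3 in normal serum, compared with 64.6% and 54.6% of all dog miRNAs. miR-449 was seen only in dystrophic serum. Its spot read 122 in normal and 142 in dystrophic serum. The normalized signal of 21.7 was 2.61 times the lowest signal detected in normal serum, with spot noise left out. The noise interval of miR-449 on the normal array reached up to 17.4, and that of its difference ran from 0.47 to 35.3. In dystrophic serum 14 of the 181 spots without a probe and 4 of the 32 negative controls equaled or exceeded its spot. miR-203 and miR-184 were detected in both, and their ratios of 0.57 and 0.78 had noise intervals that included 1. miR-31 was detected in normal serum alone, with a spot of 126 just above the limit. The remaining 6 were detected in neither, compared with 29.6% of all dog miRNAs. Of the 10 only miR-449 outshone 99% of the blank spots in dystrophic serum and none did so in normal serum. Among all dog miRNAs these shares were 36.8% and 24.4%.

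As a list from the opposite, mesenchymal state, miR-143 and miR-145 of smooth muscle, miR-199 and miR-214 of fibroblasts and mesoderm, and miR-140 of cartilage were set beside the family. 4 of 5 were detected in both sera, and miR-143 in neither, compared with 48.8% and 29.6% of all dog miRNAs. The spot of miR-140 read 404 and 279, with a ratio of 0.45 (noise interval 0.37 to 0.56), and miR-145 had a ratio of 0.51 (0.33 to 0.73). Both lay in bright surroundings, with local backgrounds of 388 and 224 for miR-140 and of 222 and 151 for miR-145. Spot minus local background went from 15.8 to 54.9 units for miR-140 and from -33.2 to 9.79 units for miR-145, the opposite direction. The part of the surroundings in these 2 ratios was not tested. The ratios of miR-199, 0.50, and miR-214, 1.16, had intervals that included 1. The median ratio of the 4 was 0.50, compared with 1.09 over the 142 miRNAs detected in both sera. The red-cell miRNAs miR-451 and miR-16 also had ratios below 1, and for miR-451 spot minus local background likewise went the opposite way. Their relation to these values was not tested. The only member of the epithelial set with a ratio, miR-205, had an interval that overlapped those of all 4.

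Detection was decided anew under 7 other ways of processing, while changes of the scaling alone leave it as it is. miR-200c was detected in dystrophic serum under 6 of the 7 and in normal serum under none; the exception requires both signals to be at least 25, which a miRNA detected on 1 array cannot meet. miR-205 was detected in both sera under 6, all except subtraction of the local background. miR-200a was detected in dystrophic serum under 2 of the 7, a limit at 3 SD and the blank level of each block. miR-141 was not detected in dystrophic serum under any of the 7. With the blank level of each block miR-141 was detected in normal serum alone, so that its order between the sera was turned, and miR-200b was detected in dystrophic serum. miR-429 was not detected under any of them.

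**Figure D5:**
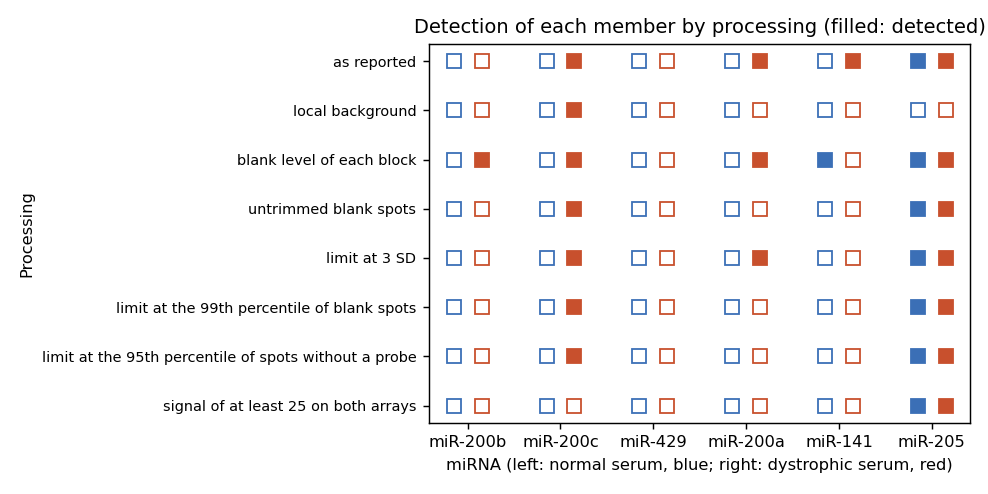
Detection of the 6 miRNAs (columns) as reported and under the 7 other ways of processing that decide it anew (rows), with filled squares for detected, blue for normal and red for dystrophic serum. The red square of miR-200c is filled in 6 of the 7 and its blue square in none, whereas the red square of miR-200a is filled in 2 and that of miR-141 in none.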

How the data were processed

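Serum RNA of 2 pools, each of 3 dogs, was measured on 1 array per condition. The intensity values deposited by the authors are the scanner output, in which a spot has a median intensity at 635 nm and a local background without normalization. Per the methods, 3D-Gene Extraction was used; its version and settings are not given in the sources used here. A deposited table holds the authors' normalized intensity, rounded to 1 decimal. Recomputed values differed from it by at most 0.050 units, with the same detection calls for the 291 dog miRNAs on both arrays.

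The mean of the blank spots, after leaving out 71 (5%, rounded up) at each end, was subtracted. Spots marked as unusable at every gain were left out; no member was. The steps were tested on simulated data. Noise intervals are 95% intervals in closed form (Fieller for ratios), from the central 95% of the blank spots and 10 control probes at least 5 times as far above the blank mean as the limit. Replicates are absent and the number of arrays limits the precision.

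The 6 members, the 10 other epithelial and 5 mesenchymal miRNAs, the muscle, red-cell and liver lists and the settings were chosen with earlier results of these data known. The liver list holds miR-122, with spots of 126 and 126. Named miRNAs were the members, those of the lists, and the 3 nearest to miR-205 and to miR-200c in log2 normalized signal. miR-329b, a neighbor of the miR-205 spot, and miR-499, miR-208a, miR-208b and miR-185 were chosen after their values were seen. The red-cell list also named miR-486, which was not matched by name and is not analysed here. The computations used limma 3.58.1 in R 4.3.3, and numpy 2.4.6, pandas 2.3.3 and matplotlib 3.10.9 in Python 3.11.15.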

Additional observations from a re-analysis of the deposited data

How the results depend on the processing

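Brightness close to that of the blank spots limits all members except miR-200c and miR-205. Of 137 recomputed values, 112 stayed within the noise interval or within 1.5 times the count. Counts of detected miRNAs could change only under the 7 settings that decide detection anew, so part of the 112 was fixed in advance. A count can also stay the same while the miRNAs in it change. Members detected in dystrophic serum were 4. They were 1 with local background subtraction, 1 when both signals had to be at least 25, and 3 with a limit at 3 SD. They were 2 with untrimmed blank spots. They were also 2 with a limit at the 99th percentile of blank spots or at the 95th percentile of spots without a probe. With the blank level of each block they were again 4, but with miR-200b in place of miR-141. In normal serum the count of 1 became 0 with local background and 2 with the blank level of each block. The dystrophic signal of miR-200c, 38.8, was 26.7 when scaled on the miRNAs common to both arrays, 14.6 with scaling on the 75th percentile, and 18.4 and 14.3 with the limits at the 99th and 95th percentiles; each brings another set or quantile to 25, which rescales every signal. That of miR-141, 7.04, was 21.3 without background subtraction and 19.1 with normexp (offset 50), which leave or add background, and 2.64 with scaling on the 75th percentile. That of miR-200a, 12.3, ran from 4.62 (75th percentile) to 22.4 (no background subtraction). The ratio of miR-205 ran from 0.64 to 1.11, above 1 under 4 alternatives, with all values inside its interval and none given by local background subtraction; it was 1.06 without scaling, 1.08 with untrimmed blank spots, and 1.11 with control probes and with the limit at the 99th percentile. The other epithelial miRNAs, 3 in each serum, were 1 in dystrophic and 0 in normal serum with local background, 1 and 0 with the 99th percentile, 0 and 1 with the 95th, 0 and 0 with a signal of at least 25, 5 in dystrophic serum with block levels and 1 in normal serum with untrimmed blank spots. The mesenchymal miRNAs, 4 in each, were 1 and 0 with local background. The causes were not tested beyond those named. No paired analysis was possible because neither serum was hybridized more than once, and no replicate could be left out.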
